A study of Mus musculus with 60 samples.

Results

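The ventral midbrain of the mouse embryo at E13.5 was set against the ventral forebrain of the same stage, from 6 of the 60 RNA-seq libraries of a study of developing brain regions. The members were chosen by region and stage as the labels give them: 3 libraries of ventral midbrain (VM, replicates 4, 5 and 6) and 3 of ventral forebrain (named RM by the submitters, replicates 4, 5 and 6), all from 1 sequencing run. The whole study covered 5 brain regions at 4 stages with 3 libraries in each of the 20 groups. Every embryo, VM and RM alike, carried the TH-GFP reporter, a transgene in which the tyrosine hydroxylase promoter drives green fluorescent protein. Regions were cut by hand under a stereomicroscope with the fluorescence as a guide, and those of VM included both the floor plate and the basal plate. Cells were not sorted, so each library holds RNA of a whole piece of tissue with all its cell types. Whether each library is a different embryo or litter is not stated in the labels, and the p-values then measure only the spread between these samples, part of which may be technical. In pieces of tissue, fewer cells of a type and less RNA per cell cannot be told apart.

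The ventral midbrain is the birthplace of the dopaminergic neurons of the substantia nigra and the ventral tegmental area. These neurons arise from floor plate progenitors that depend on Sonic hedgehog and Wnt1 and express the transcription factors Lmx1a, Foxa2, Otx2 and Msx1, and they then switch on Nr4a2, Pitx3 and the enzymes that make and store dopamine. Engrailed genes mark the midbrain and the neighbouring isthmus, the organizer at the midbrain-hindbrain border that secretes Fgf8. Lateral to the floor plate, basal plate progenitors give rise to oculomotor and red nucleus neurons and to GABAergic neurons. The ventral forebrain at this age holds the hypothalamus, patterned by Nkx2-1 and a set of homeodomain factors, the preoptic area and the subpallium.

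Levels are given as RPKM, read counts scaled to transcript length and to the depth of the library. Differences between the regions are log2 changes, VM minus RM, of RPKM + 1, with a standard error from limma, and they understate the change of genes with low levels. A gene was called when the Benjamini-Hochberg adjusted p over all tested genes was below 0.05 and the log2 change was at least 1 in either direction, and higher and lower are used of VM relative to RM. Each library was also left out in turn, and the comparison was repeated under other settings, among them voom, limma's method for counts, on reads recovered from the RPKM. A call is said to be lost where the adjusted p or the fold no longer passed. Depth was 4973179, 14078912 and 10208226 reads in VM replicates 4, 5 and 6, against 10248920, 7944211 and 8506081 reads in RM replicates 4, 5 and 6. VM replicate 4 is therefore the least precise library for genes with low levels.

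Some libraries stood apart from the others of their group. VM replicate 4 had 32 genes at 5 RPKM or more that exceeded both other VM libraries by at least 2 on the log2 scale, against 2 genes in VM replicate 5 and 0 in VM replicate 6. Collagens and other meningeal genes were among them, and summed meningeal markers reached 359.7 RPKM there, against 8.23 and 8.76 RPKM in the other VM libraries. The forebrain gene Emx1 also stood at 8.06 RPKM in VM replicate 4. Among the RM libraries, the same count was 17 in replicate 4, 30 in replicate 5 and 1 in replicate 6. RM replicate 4 had its own meningeal signal, at 105 RPKM, and hypothalamic genes such as Nr5a1, Vax1 and Fezf1. RM replicate 5 carried genes of the thalamus, pretectum and midbrain roof: Tcf7l2 stood there at 264 RPKM, against 5.51 and 4.12 RPKM in RM replicates 4 and 6, with Gata3, Gbx2, Tfap2b and Irx2 alongside. VM replicate 4 and RM replicate 5 were left out together as an added alternative chosen after seeing the data.

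**Figure D1:**
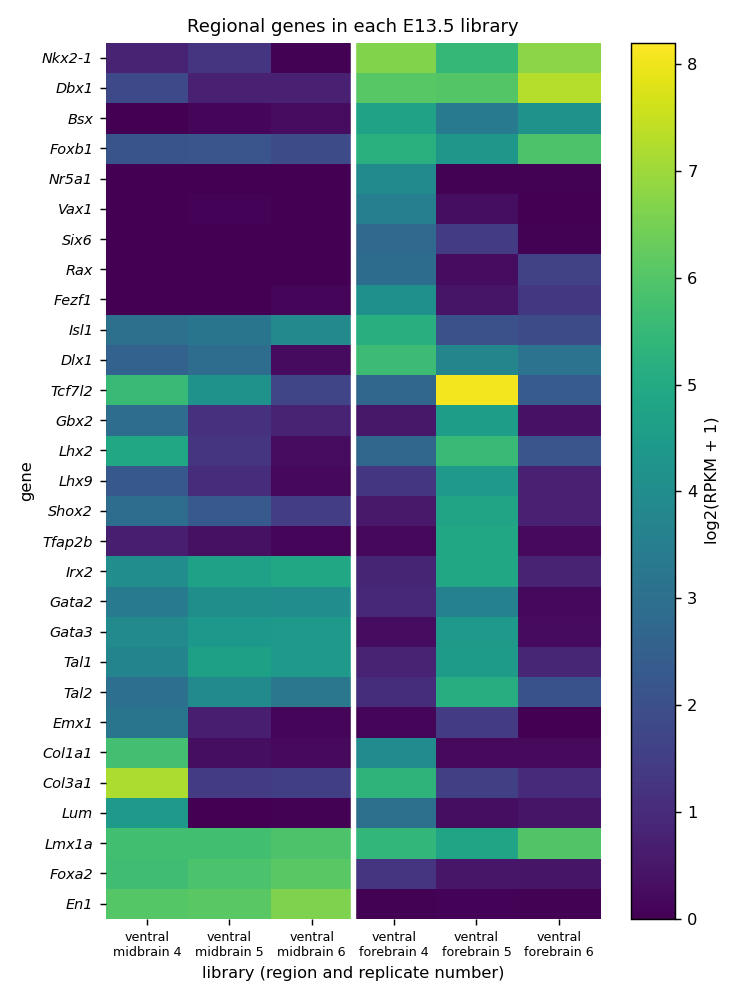
Level of 29 regional genes in each of the 6 libraries, as log2(RPKM + 1), with VM replicates 4, 5 and 6 left of RM replicates 4, 5 and 6. Among the VM libraries the forebrain gene Emx1 is brightest in replicate 4, and Tcf7l2, Gata3 and Gbx2 are brighter in RM replicate 5 than in either other RM library.

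Of 13496 genes tested, 362 were called (2.68%): 296 were higher in VM (2.19% of those tested) and 66 were lower (0.489%). The counts called in the lists below are to be read beside these shares. The log2 change reached 6.19 upward, for En1, and -5.60 downward, for Nkx2-1. The libraries of the regions did not overlap for 4644 genes (34.4%), so a lack of overlap alone is common here. The median log2 change of all tested genes was -0.013. The 12 named genes with the largest increases were En1, En2, Foxa2, Ddc, Pitx3, Slc6a4, Corin, Th, Fev, Ferd3l, Cnpy1 and Ccdc3. The first 11 belong to lists of midbrain, floor plate or aminergic genes. Those lists were written with earlier results of these data known, so the membership is a description only. Ccdc3, a secreted coiled-coil protein, had 23.4, 24.7 and 30.6 RPKM in VM, against 0.991, 0.913 and 0.895 RPKM in RM (log2 change of 3.81 ± 0.12, adjusted p = 9.36e-06). The 12 with the largest decreases were Nkx2-1, Dbx1, Nkx2-4, Bsx, Fezf2, Barhl1, Barhl2, Foxb1, Pmch, Foxb2, Lhx6 and Olig2. Foxb2, a forkhead gene related to Foxb1, had 0, 0 and 0.243 RPKM in VM, against 5.26, 3.51 and 11.7 RPKM in RM (log2 change of -2.72 ± 0.35, adjusted p = 0.00465).

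**Figure D2:**
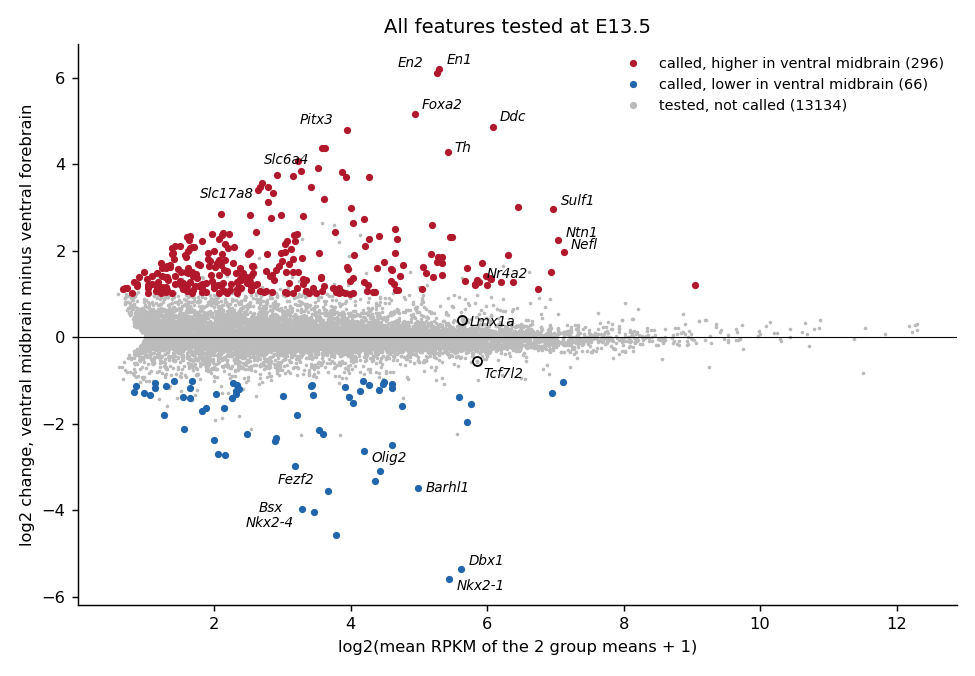
Mean level over the 6 libraries (log2 of RPKM + 1, horizontal axis) against the VM minus RM log2 change (vertical axis) for every gene tested, with the 296 genes called higher in VM, the 66 called lower and the 13134 not called in separate colours. Calls upward reach further and are more numerous than calls downward, and Lmx1a and Tcf7l2, circled, lie among the genes not called.

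The regional markers separated the pieces for En1 and Nkx2-1, but Lmx1a did not. En1, the engrailed homeobox gene of the midbrain and isthmus on chromosome 1 (120602418 to 120607992, plus strand) in mm10, had 64.6, 66.96 and 97.6 RPKM in the VM libraries, against 0.0368, 0.0474 and 0.0443 RPKM in the RM libraries, where each value is a single read. The groups lay far apart (log2 change of 6.19 ± 0.16, adjusted p = 8.54e-06). Nkx2-1, the homeobox gene of the ventral forebrain on chromosome 12 (56531958 to 56536908, minus strand), had 0.746, 1.39 and 0.03304 RPKM in VM, against 99.7, 42.8 and 109.5 RPKM in RM. Every RM library exceeded every VM library, though RM replicate 5 was well below the other RM libraries (log2 change of -5.60 ± 0.41, adjusted p = 0.000533). Lmx1a, the floor plate and dopaminergic-lineage factor on chromosome 1 (167689237 to 167848741, plus strand), had 51.6, 52.001 and 58.5 RPKM in VM, against 41.7, 26.9 and 61.2 RPKM in RM. Its highest value of all 6 was in an RM library, the groups overlapped, and no difference passed the test (log2 change of 0.39 ± 0.25, adjusted p = 0.366). The label of the ventral midbrain therefore held against En1, and that of the ventral forebrain against Nkx2-1, while Lmx1a did not tell them apart.

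**Figure D3:**
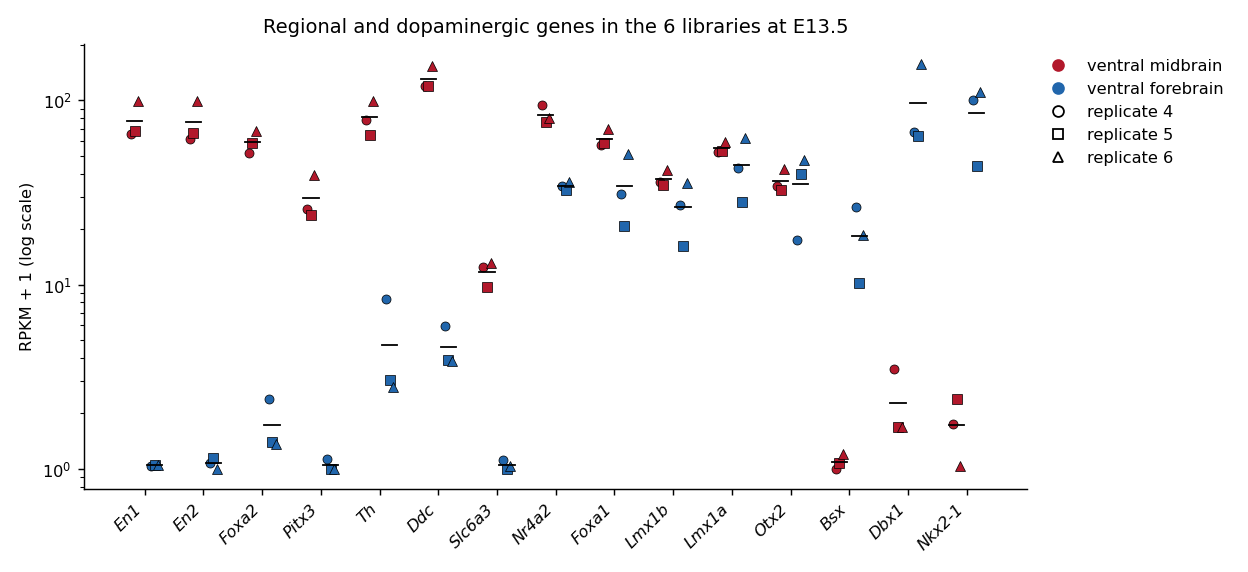
RPKM + 1 on a log axis for 15 genes in each library, VM at the left of each pair and RM at the right, with a marker shape for each replicate number and a line at the group mean. En1, En2, Foxa2, Pitx3, Th, Ddc and Slc6a3 are separated by a wide gap, Foxa1, Lmx1b, Lmx1a and Otx2 overlap or nearly meet, and Bsx, Dbx1 and Nkx2-1 are high in RM.

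Among 16 transcription factors of the midbrain dopaminergic lineage, 8 were higher in VM, none was lower and 8 were not called, with a median log2 change of 1.04. En2, the second engrailed gene, stood at 60.98, 65.3 and 98.4 RPKM in VM, against 0.0805, 0.138 and 0 RPKM in RM (log2 change of 6.11 ± 0.18, adjusted p = 9.36e-06). Foxa2, a forkhead factor needed for floor plate and dopaminergic fate, lies on chromosome 2 (148042877 to 148046969, minus strand) and had 50.5, 57.9 and 67.3 RPKM in VM, against 1.402, 0.396 and 0.3695 RPKM in RM. Both genes showed a gap between the groups many times wider than the spread within them (log2 change of 5.15 ± 0.22, adjusted p = 3.93e-05 for Foxa2). Pitx3, a homeobox gene of postmitotic dopaminergic neurons, had 24.6, 22.97 and 38.4 RPKM in VM, against 0.132, 0 and 0 RPKM in RM (log2 change of 4.80 ± 0.19, adjusted p = 3.65e-05). Nr4a2, the orphan nuclear receptor that switches on dopaminergic genes, differed in another way: it was clearly present in both regions. Its level was 92.9, 75.6 and 79.2 RPKM in VM, against 33.3, 31.5 and 34.9 RPKM in RM (log2 change of 1.28 ± 0.086, adjusted p = 0.000382). Nr4a2, Dmrta2, Bnc2 and Msx2 were named after their values were seen. Dmrta2, a doublesex-related factor of ventral midbrain progenitors, had 36.96, 33.7 and 32.8 RPKM in VM, against 4.32, 1.24 and 0.694 RPKM in RM (log2 change of 3.70 ± 0.37, adjusted p = 0.0016). Bnc2, a zinc finger gene, was low in both, with 3.07, 2.35 and 2.601 RPKM in VM, against 0.253, 0.211 and 0.161 RPKM in RM (log2 change of 1.60 ± 0.15, adjusted p = 0.0011). Msx2 had 1.51, 0.848 and 1.299 RPKM in VM and was listed at 0 in all RM libraries (adjusted p = 0.0101). The call of Msx2 was lost without VM replicate 6, and without VM replicate 4 and RM replicate 5 together (adjusted p from 0.0559 to 0.0665).

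The 8 uncalled dopaminergic factors were present in both regions. Lmx1b, the paralogue of Lmx1a, had 35.1, 33.6 and 40.996 RPKM in VM, against 26.1, 15.2 and 34.5 RPKM in RM (log2 change of 0.58 ± 0.26, adjusted p = 0.19). Foxa1, the partner of Foxa2, had 56.1, 57.3 and 68.5 RPKM in VM, against 30.2, 19.8 and 49.9 RPKM in RM (log2 change of 0.94 ± 0.29, adjusted p = 0.086). Its groups are thus close, while those of Foxa2 are far apart. Otx2, which sets the midbrain side of the isthmic border, had 33.1, 31.8 and 41.5 RPKM in VM, against 16.5, 38.9 and 46.4 RPKM in RM (log2 change of 0.17 ± 0.34, adjusted p = 0.776). Msx1, a progenitor factor downstream of Lmx1a, had 8.42, 7.55 and 10.9 RPKM in VM, against 4.52, 5.89 and 6.48 RPKM in RM (log2 change of 0.58 ± 0.16, adjusted p = 0.0652). The proneural gene Neurog2 had a log2 change of -0.50 ± 0.30 and Sox6 one of 0.32 ± 0.15, and neither passed the test.

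Of 12 genes of dopamine synthesis, packaging, reuptake and breakdown, 5 were called higher in VM and none lower: Th, Ddc, Gch1, Slc18a2 and Slc6a3. The list had a median log2 change of 0.72. The 250 bases before the annotated start are shown for these 5 because they are the called genes of this list. They are from RefSeq (GRCm38.p6), written on the strand of the gene, 5′ to 3′, with capitals marking matches to the motifs described after them. The window of another listed start of Ddc is not shown, and it held none of these motifs.
Th (chr7:142899996-142900245, minus strand): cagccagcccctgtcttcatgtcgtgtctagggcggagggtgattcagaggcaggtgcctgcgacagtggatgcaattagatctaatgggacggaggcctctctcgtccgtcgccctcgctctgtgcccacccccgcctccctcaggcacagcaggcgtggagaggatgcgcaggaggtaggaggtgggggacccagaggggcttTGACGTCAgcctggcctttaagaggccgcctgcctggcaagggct
Ddc (chr11:11898145-11898394, minus strand): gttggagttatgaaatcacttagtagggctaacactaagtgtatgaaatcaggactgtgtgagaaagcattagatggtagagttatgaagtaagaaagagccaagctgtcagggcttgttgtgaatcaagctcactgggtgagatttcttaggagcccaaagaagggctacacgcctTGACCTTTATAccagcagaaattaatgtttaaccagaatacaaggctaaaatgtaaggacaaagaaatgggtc
Slc6a3 (chr13:73536497-73536746, plus strand): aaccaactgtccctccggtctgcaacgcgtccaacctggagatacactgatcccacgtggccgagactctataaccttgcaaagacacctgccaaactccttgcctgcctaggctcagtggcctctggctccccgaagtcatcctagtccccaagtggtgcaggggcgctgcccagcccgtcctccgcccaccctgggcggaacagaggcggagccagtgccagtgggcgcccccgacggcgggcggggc
Slc18a2 (chr19:59260628-59260877, plus strand): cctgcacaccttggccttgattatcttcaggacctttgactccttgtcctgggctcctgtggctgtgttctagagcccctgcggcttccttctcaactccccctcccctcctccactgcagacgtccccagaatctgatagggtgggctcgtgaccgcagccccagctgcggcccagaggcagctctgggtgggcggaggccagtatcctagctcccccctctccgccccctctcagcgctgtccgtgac
Gch1 (chr14:47189414-47189663, minus strand): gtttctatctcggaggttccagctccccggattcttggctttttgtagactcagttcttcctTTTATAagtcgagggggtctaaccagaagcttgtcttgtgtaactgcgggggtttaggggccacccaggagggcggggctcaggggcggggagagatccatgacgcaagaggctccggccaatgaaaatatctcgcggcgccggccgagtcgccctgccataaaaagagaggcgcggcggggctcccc
In all, 6 short motifs were looked for on both strands: the TATA box TATAAA, the cyclic AMP response element TGACGTCA, the NR4A site AAAGGTCA, the homeodomain sites TAATCC and TAATTA and the forkhead site TGTTTAC. Among 32536 distinct windows of this length before annotated starts, 12.3% held the first, 1.56% the second, 1.35% the third, 6.25% and 4.84% the homeodomain sites and 3.17% the forkhead site. Th held 1 TGACGTCA, from 45 to 38 bases before the start. Ddc held AAAGGTCA on the reverse strand, from 73 to 66 bases before the start, overlapping a reverse-strand TATAAA from 68 to 63 bases before it, and Gch1 held a reverse-strand TATAAA from 188 to 183 bases before its start. None of the searched letters was in the windows of Slc6a3 and Slc18a2. A match describes the letters only, and a window without one says nothing of the factor.

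Th, tyrosine hydroxylase, makes the dopamine precursor in the rate-limiting step. It had 77.5, 64.1 and 98.1 RPKM in VM, against 7.303, 2.03 and 1.77 RPKM in RM, where replicate 4 stood well above the other RM libraries. The groups did not overlap (log2 change of 4.27 ± 0.40, adjusted p = 0.00118). Ddc, the decarboxylase that turns this precursor into dopamine, had 118, 118 and 154 RPKM in VM, against 4.95, 2.88 and 2.85 RPKM in RM (log2 change of 4.87 ± 0.19, adjusted p = 3.54e-05). Gch1, which starts the synthesis of the cofactor of tyrosine hydroxylase, had 11.9, 10.3 and 14.6 RPKM in VM, against 0.273, 0.396 and 0.246 RPKM in RM (log2 change of 3.33 ± 0.14, adjusted p = 3.93e-05). Slc6a3, the dopamine transporter of the cell surface, had 11.4, 8.65 and 12.04 RPKM in VM and was nearly absent in RM at 0.1098, 0 and 0.0331 RPKM (log2 change of 3.47 ± 0.15, adjusted p = 3.93e-05). Slc18a2, the vesicular monoamine transporter that aminergic neurons share, had the smallest log2 change among the called genes of this list. It had 38.9, 34.9 and 49.3 RPKM in VM, against 5.72, 7.16 and 10.99 RPKM in RM (log2 change of 2.26 ± 0.22, adjusted p = 0.00135), and it was named after its values were seen. The remaining genes of the list changed by less than the fold required: Maoa, which breaks dopamine down, had a log2 change of 0.62 ± 0.12 (adjusted p = 0.0242). Drd2, the autoreceptor, had 2.07, 2.46 and 4.28 RPKM in VM, against 1.78, 1.37 and 0.5703 RPKM in RM (log2 change of 0.81 ± 0.28, adjusted p = 0.107). Qdpr, Spr, Maob and Pts had log2 changes of 0.32, 0.40, 0.16 and 0.058.

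Of 15 tested receptors and genes that mark subsets of dopaminergic neurons, 8 were higher and none lower, with a median log2 change of 1.33. Chrna6, a nicotinic receptor subunit of dopaminergic terminals, had 10.97, 8.105 and 14.1 RPKM in VM and was listed at 0 in all 3 RM libraries (adjusted p = 0.000103). Gfra1 and Ret form the receptor for GDNF, a survival factor of these neurons. Gfra1 had 55.6, 58.1 and 73.3 RPKM in VM, against 16.8, 14.1 and 18.9 RPKM in RM (log2 change of 1.85 ± 0.13, adjusted p = 0.000477), so it was present in both regions. Ret had 12.3, 9.16 and 12.7 RPKM in VM, against 1.76, 0.575 and 0.379 RPKM in RM (log2 change of 2.76 ± 0.26, adjusted p = 0.00135). Neither gene overlapped between the groups. Aldh1a1, the aldehyde dehydrogenase of a ventral subset of dopaminergic neurons, was just above the filter with 2.36, 1.299 and 1.42 RPKM in VM, against 0.0458, 0 and 0 RPKM in RM (log2 change of 1.39 ± 0.19, adjusted p = 0.00622). Vip, Lpl and Cck, named after their values were seen, were also higher. The neuropeptide gene Vip had 6.18, 2.71 and 3.91 RPKM in VM and was listed at 0 throughout RM, and the lipase gene Lpl changed by 1.33 ± 0.13 (adjusted p = 0.00153). Cck, another neuropeptide of midbrain dopaminergic neurons, had 7.17, 6.999 and 10.2 RPKM in VM, against 2.45, 3.03 and 4.56 RPKM in RM (log2 change of 1.08 ± 0.21, adjusted p = 0.0211). The call of Cck was lost without VM replicates 4, 5 or 6 or RM replicate 4, and without VM replicate 4 and RM replicate 5 together (adjusted p from 0.0463 to 0.0858). Of the uncalled genes, Slc17a6, the main vesicular glutamate transporter of the brainstem, and Dcc, the netrin receptor, had negative log2 changes of -0.75 ± 0.18 and -0.40 ± 0.078 (adjusted p = 0.0431 and 0.023). Calb1 and Calb2, calcium-binding proteins found in many neuron types, overlapped between regions, with changes of -0.78 ± 0.62 and -0.41 ± 0.54. Sncg had a change of 1.89 ± 0.60 that missed the test (adjusted p = 0.0937).

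The floor plate list held 18 genes, of which 12 were higher in VM and 1 was lower, with a median log2 change of 1.73. Corin, a membrane protease used to isolate floor plate progenitors, had 18.5, 21.8 and 24.8 RPKM in VM, against 0.1901, 0.0736 and 0.0229 RPKM in RM (log2 change of 4.37 ± 0.14, adjusted p = 9.36e-06). Ferd3l, a helix-loop-helix factor of the midbrain floor plate, had 17.4, 18.3 and 25.6 RPKM in VM, against 0.396, 0.639 and 0.239 RPKM in RM (log2 change of 3.90 ± 0.17, adjusted p = 3.94e-05). Both were nearly silent in the ventral forebrain. 3 secreted products, Ntn1, Spon1 and Sulf1, were present in both regions and higher in VM. Ntn1, the axon attractant netrin-1, had 177, 209 and 259.7 RPKM in VM, against 45.99, 32.3 and 57.9 RPKM in RM (log2 change of 2.24 ± 0.22, adjusted p = 0.00136). Spon1, the matrix protein F-spondin, had 109, 165 and 189.6 RPKM in VM, against 23.1, 11.2 and 22.2 RPKM in RM (log2 change of 3.001 ± 0.30, adjusted p = 0.00151), and the extracellular sulfatase Sulf1 had 172, 224 and 265 RPKM in VM, against 37.2, 15.7 and 32.5 RPKM in RM (log2 change of 2.97 ± 0.30, adjusted p = 0.00168). In each case the lowest VM library exceeded the highest RM library. Shh, the ventralizing morphogen, had 30.96, 33.04 and 40.3 RPKM in VM, against 14.6, 6.41 and 14.3 RPKM in RM (log2 change of 1.56 ± 0.28, adjusted p = 0.0168). The call of Shh was lost without VM replicates 5 or 6 (adjusted p from 0.0573 to 0.0789). Rspo2, a secreted enhancer of Wnt signalling, ran the other way, with 6.196, 7.52 and 8.23 RPKM in VM, against 18.2, 13.6 and 34.4 RPKM in RM (log2 change of -1.38 ± 0.29, adjusted p = 0.0301). The call of Rspo2 was lost without VM replicates 4, 5 or 6 or RM replicate 4, and with no filter on low values (adjusted p from 0.0531 to 0.0932). Foxa1 missed the test, and Sulf2, at 0.80 ± 0.15, missed the fold; Spon1 and Sulf1 were named after their values were seen.

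Genes of the midbrain and of the isthmic organizer were called higher in 8 of 17 cases and lower in none, with a median log2 change of 0.89. Cnpy1, known in zebrafish as a modulator of FGF signalling at the isthmus, had 14.7, 16.1 and 20.5 RPKM in VM, against 0.328, 0.106 and 0.346 RPKM in RM (log2 change of 3.84 ± 0.15, adjusted p = 3.65e-05). Pax5, a paired-box factor of the isthmus, had 9.84, 14.6 and 14.7 RPKM in VM, against 0, 0 and 0.0899 RPKM in RM (log2 change of 3.75 ± 0.17, adjusted p = 3.94e-05). Pax8 and Etv5, named after their values were seen, changed by 1.94 ± 0.27 and 1.48 ± 0.20 (adjusted p = 0.00636 and 0.00555). Fgf8, the organizer's signal, was low everywhere, with 2.41, 1.802 and 2.49 RPKM in VM, against 0.756, 0.0887 and 0.828 RPKM in RM (log2 change of 1.08 ± 0.23, adjusted p = 0.0298). The call of Fgf8 was lost without VM replicates 4, 5 or 6 or RM replicate 5, with a pseudocount of 0.1, under voom and without VM replicate 4 and RM replicate 5 together (adjusted p from 0.0328 to 0.125). Wnt1, expressed on the midbrain side of the border and in the floor plate, had 2.44, 2.36 and 4.995 RPKM in VM, against 0.434, 0.968 and 0.999 RPKM in RM (log2 change of 1.21 ± 0.26, adjusted p = 0.0309), and was named after its values were seen. The call of Wnt1 was lost without VM replicates 4, 5 or 6 or RM replicates 4, 5 or 6, with no filter on low values and without VM replicate 4 and RM replicate 5 together (adjusted p from 0.051 to 0.0839). The FGF feedback genes Spry1, Spry2, Dusp6 and Etv4 had changes of 0.58, 0.62, 0.13 and 0.59, none past the fold. Without VM replicate 4 and RM replicate 5, 6 of the list were called higher.

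The VM pieces also held genes of other ventral neurons, whose fates neighbour the dopaminergic one. Of 8 tested genes of cranial motor and red nucleus neurons, 7 were higher and none lower, with a median log2 change of 1.88. The cholinergic transporters Slc5a7 and Slc18a3 had changes of 1.84 ± 0.17 and 1.997 ± 0.20 (adjusted p = 0.00118 and 0.00147). Pou4f1, a POU factor of the red nucleus, had 12.3, 13.9 and 21.4 RPKM in VM, against 0.301, 4.103 and 0.996 RPKM in RM, with RM replicate 5 above the other RM libraries (log2 change of 2.80 ± 0.47, adjusted p = 0.0133). The call of Pou4f1 was lost without VM replicate 6 (adjusted p = 0.0645). Its relative Pou4f2 had 2.003, 3.47 and 3.87 RPKM in VM, against 0, 0.228 and 0 RPKM in RM (log2 change of 1.91 ± 0.22, adjusted p = 0.00265). Prph and Phox2a changed by 1.21 ± 0.19 and 1.02 ± 0.21. The call of Prph was lost in the fit of all 15 E13.5 libraries (adjusted p = 0.268). The call of Phox2a was lost without VM replicates 4 or 6 or RM replicates 4, 5 or 6, and without VM replicate 4 and RM replicate 5 together (adjusted p from 0.0552 to 0.122). Isl1, found in motor and in hypothalamic neurons, overlapped between the groups, with 7.198, 8.14 and 13.47 RPKM in VM, against 34.6, 3.12 and 2.64 RPKM in RM. Pou4f1, Prph and Phox2a were named after their values were seen.

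Serotonergic genes were among the widest differences, with 4 of 5 tested genes higher, none lower and a median log2 change of 3.48. Serotonergic neurons are born in the hindbrain, the rostral group next to the isthmus. Fev, their defining ETS factor, had 14.1, 14.03 and 21.7 RPKM in VM, against 0.0618, 0 and 0 RPKM in RM (log2 change of 4.08 ± 0.18, adjusted p = 3.93e-05). Slc6a4, the serotonin transporter, had 17.5, 19.9 and 30.5 RPKM in VM, against 0.0685, 0.177 and 0.0826 RPKM in RM (log2 change of 4.38 ± 0.20, adjusted p = 3.94e-05), and Tph2, the enzyme of serotonin synthesis, had 9.15, 10.6 and 15.2 RPKM in VM, against 0, 0.369 and 0 RPKM in RM (log2 change of 3.48 ± 0.21, adjusted p = 0.000231). In all 3 genes VM replicate 6 was the highest library. The 3 ventral hindbrain libraries of the same stage had 4.74 to 9.17 RPKM of Fev, below every VM library, and 11.1 to 18.5 RPKM of Slc6a4 and 5.32 to 13.7 RPKM of Tph2, which overlapped the VM values. Slc22a3, an organic cation transporter, changed by 1.71 ± 0.18 (adjusted p = 0.00203). The Hox genes of paralogue groups 1 to 5, which mark hindbrain behind its first segment, were not tested because none reached the filter. Their summed level over 15 genes was 0.07 to 0.32 RPKM in VM and 0.06 to 0.17 RPKM in RM, with 5 genes at 0 in all 6 libraries. The part of hindbrain tissue in the serotonergic and motor values was not tested.

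For the GABAergic fate of the midbrain, the count depended on 1 RM library. Of 11 tested genes, 2 were higher in VM with all libraries, and 8 were higher without RM replicate 5, alone or together with VM replicate 4. The 2 were Nkx6-1 and Nkx6-2, homeobox genes of ventral progenitors. Nkx6-1 had 17.9, 20.2 and 24.8 RPKM in VM, against 1.34, 1.26 and 1.55 RPKM in RM (log2 change of 3.19 ± 0.13, adjusted p = 3.65e-05), and Nkx6-2 had 13.1, 13.7 and 10.6 RPKM in VM, against 1.799, 2.195 and 2.05 RPKM in RM (log2 change of 2.15 ± 0.12, adjusted p = 0.000152). Gata3 and Gata2, the zinc finger selectors of this fate, show the dependence. Gata3 had 13.7, 19.8 and 20.7 RPKM in VM, against 0.206, 20.01 and 0.177 RPKM in RM, and Gata2 had 9.504, 15.9 and 15.2 RPKM in VM, against 0.876, 11.1 and 0.141 RPKM in RM. RM replicate 5 alone among the RM libraries reached the VM range or came near it, and neither gene passed the test with all 6 libraries (adjusted p = 0.149 and 0.111). Tal1 behaved likewise, with 12.03, 24.1 and 20.1 RPKM in VM, against 0.733, 21.7 and 0.828 RPKM in RM (log2 change of 2.20 ± 0.92, adjusted p = 0.174). The summed level of diencephalic markers beyond the hypothalamus was 221, 183 and 144 RPKM in VM, against 255, 675 and 418 RPKM in RM. It was highest in RM replicate 5, where Tcf7l2 alone gave 264 RPKM of the sum. The sum pools genes of unlike pattern: Barhl1, for example, was highest in RM replicate 6. The part of the diencephalic markers in the GABAergic counts was not tested. At E12.5, in libraries described below, 0 of the 11 GABAergic fate genes were higher in VM and 5 were lower. The median log2 change of the list was -0.97 at that stage, against 1.57 at E13.5.

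Among genes of transmission, 7.14% of the GABAergic, 14.3% of the glutamatergic and 10% of the potassium channel genes tested were called higher. Of all genes tested, 2.19% were. Each of these shares rests on 1 or 2 genes. Of 14 GABAergic genes, 1 was higher and none lower (median log2 change 0.28): Slc6a11, a GABA transporter, had 6.42, 6.67 and 7.64 RPKM in VM, against 3.07, 2.05 and 1.24 RPKM in RM (log2 change of 1.38 ± 0.21, adjusted p = 0.00905). The call of Slc6a11 was lost without VM replicate 6, and without VM replicate 4 and RM replicate 5 together (adjusted p from 0.0531 to 0.054). Gad1, a GABA-synthesizing enzyme, had 15.997, 21.4 and 17.5 RPKM in VM, against 12.4, 17.4 and 2.15 RPKM in RM, and its paralogue Gad2 had 12.6, 19.7 and 16.4 RPKM in VM, against 8.402, 16.3 and 1.38 RPKM in RM. RM replicate 6 was far below the other RM libraries, and neither gene passed the test (adjusted p = 0.284 and 0.259). Of 14 glutamatergic genes, 2 were higher and none lower (median 0.42). Slc17a8, the third vesicular glutamate transporter, had 9.41, 11.3 and 13.6 RPKM in VM, against 0.386, 0.553 and 0.284 RPKM in RM (log2 change of 3.13 ± 0.16, adjusted p = 7.13e-05). Gria3, an AMPA receptor subunit, had 9.94, 9.33 and 10.7 RPKM in VM, against 2.54, 4.505 and 1.76 RPKM in RM (log2 change of 1.54 ± 0.23, adjusted p = 0.00871). The call of Gria3 was lost without VM replicate 6 (adjusted p = 0.05). Among 20 potassium channel genes, 2 were higher and none lower (median 0.38). The leak channel gene Kcnk9 had 24.3, 23.98 and 33.4 RPKM in VM, against 2.39, 0.769 and 0.629 RPKM in RM (log2 change of 3.71 ± 0.28, adjusted p = 0.0006), and Kcnd3, a channel of the A-type current, had 21.7, 20.95 and 24.8 RPKM in VM, against 8.82, 8.797 and 6.85 RPKM in RM (log2 change of 1.36 ± 0.11, adjusted p = 0.000777). Kcnj6, a channel typical of mature dopaminergic neurons, stayed under the filter.

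On the forebrain side, 9 of 25 tested genes of the hypothalamus and preoptic area were lower in VM and none was higher, with a median log2 change of -1.33. Some members, such as Nr5a1, were absent from every VM library and passed the filter only through RM, which fixed the sign of their change. The median includes them. Without VM replicate 4 and RM replicate 5 together, 11 were lower, and without RM replicate 4, 8 of 19 tested were lower and 2 higher. Dbx1, a homeobox gene of ventricular zone progenitors, had 2.49, 0.685 and 0.675 RPKM in VM, against 66.2, 63.1 and 156 RPKM in RM (log2 change of -5.36 ± 0.41, adjusted p = 0.0006), and its RM mean was 74.1 times the VM mean. That gene was not particular to the ventral forebrain: dorsal midbrain at E13.5 had from 61.6 to 81.5 RPKM. Bsx, a homeobox gene of feeding-related hypothalamic neurons, had 0, 0.0728 and 0.201 RPKM in VM, against 25.3, 9.17 and 17.5 RPKM in RM (log2 change of -3.97 ± 0.31, adjusted p = 0.000692). Nkx2-4, a close relative of Nkx2-1, had 0.345, 0.122 and 0 RPKM in VM, against 16.9, 10.4 and 32.5 RPKM in RM (log2 change of -4.05 ± 0.36, adjusted p = 0.000942). RM replicate 5 was the lowest RM library for all 3 genes, and still lay far above every VM library. Foxb1, a forkhead gene of the mammillary region, had 3.39, 3.501 and 2.6999 RPKM in VM, against 35.7, 19.3 and 59.1 RPKM in RM (log2 change of -3.09 ± 0.34, adjusted p = 0.00236). Fezf2, a forebrain zinc finger gene, had 4.18, 0 and 0 RPKM in VM, against 19.4, 9.79 and 36.97 RPKM in RM (log2 change of -3.55 ± 0.70, adjusted p = 0.0237), so the VM signal was in replicate 4 alone. The call of Fezf2 was lost without VM replicates 5 or 6 or RM replicates 4 or 6, and under voom (adjusted p from 0.0571 to 0.096).

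Sim1, Otp and Sim2, factors of neuroendocrine hypothalamic neurons named after their values were seen, had measurable levels in both regions. Sim1 had 3.48, 3.55 and 2.47 RPKM in VM, against 16.3, 12.2 and 25.2 RPKM in RM (log2 change of -2.14 ± 0.24, adjusted p = 0.00253). Otp had 7.84, 5.76 and 8.79 RPKM in VM, against 27.2, 17.97 and 25.03 RPKM in RM (log2 change of -1.52 ± 0.18, adjusted p = 0.00342), and Sim2 had 1.71, 1.68 and 0.598 RPKM in VM, against 7.56, 7.28 and 20.1 RPKM in RM (log2 change of -2.34 ± 0.38, adjusted p = 0.0125). The groups were separate for each of them. The call of Sim2 was lost without VM replicate 6 (adjusted p = 0.0546). Genes of the optic and anterior hypothalamic field were uneven among the RM libraries and did not pass the test. Rax, for example, had 0, 0 and 0 RPKM in VM, against 6.51, 0.213 and 2.06 RPKM in RM, Six6 had 0, 0 and 0 RPKM in VM, against 5.94, 1.71 and 0.02898 RPKM in RM, and Nr5a1, the factor of the ventromedial nucleus, had 0, 0 and 0 RPKM in VM, against 13.7, 0.0413 and 0.0386 RPKM in RM. Nr5a1 and Vax1, at 0, 0.0636 and 0 RPKM in VM, against 10.7, 0.225 and 0 RPKM in RM, were carried by RM replicate 4.

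Of 12 tested hypothalamic neuropeptides, 3 were lower and 1 was higher in VM, with a median log2 change of -0.42. Leaving out any 1 VM library left 1 lower, and without RM replicate 4, 2 were lower and 2 higher. Pmch, the melanin-concentrating hormone precursor, had 0.474, 0.503 and 0.924 RPKM in VM, against 33.02, 7.72 and 6.09996 RPKM in RM, where replicate 4 dominated (log2 change of -2.98 ± 0.54, adjusted p = 0.0172). The call of Pmch was lost without VM replicates 4, 5 or 6, under voom and without VM replicate 4 and RM replicate 5 together (adjusted p from 0.0606 to 0.0706). Npy, neuropeptide Y, had 0, 0.551 and 0.304 RPKM in VM, against 5.597, 6.83 and 4.56 RPKM in RM (log2 change of -2.38 ± 0.21, adjusted p = 0.000902), and Trh, the thyrotropin-releasing hormone precursor, had 0.271, 0.526 and 0.396 RPKM in VM, against 2.56, 1.19 and 2.14 RPKM in RM (log2 change of -1.06 ± 0.21, adjusted p = 0.0245). The call of Trh was lost without VM replicates 4, 5 or 6 or RM replicates 4 or 6 (adjusted p from 0.0593 to 0.0975). Cartpt, a peptide precursor that the midbrain also makes, ran the other way, with 24.95, 35.8 and 21.9 RPKM in VM, against 2.402, 3.61 and 1.81 RPKM in RM (log2 change of 2.98 ± 0.23, adjusted p = 0.0006). Pomc was uneven in RM and not called, at 2.12, 1.25 and 1.72 RPKM in VM, against 22.7, 3.09 and 0.908 RPKM in RM. Avp, Oxt, Crh, Agrp, Hcrt, Tac2 and Kiss1 stayed under the filter.

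Diencephalic factors beyond the hypothalamus were lower in 5 of 16 tested cases and higher in none, with a median log2 change of -0.78. Without VM replicate 4 and RM replicate 5 together, 5 were lower and 2 higher. Barhl2, a homeobox gene of diencephalic neurons, had 3.91, 4.21 and 0.771 RPKM in VM, against 27.2, 31.7 and 49.3 RPKM in RM (log2 change of -3.33 ± 0.42, adjusted p = 0.0041). Its paralogue Barhl1 had 6.79, 7.68 and 0.775 RPKM in VM, against 44.1, 46.5 and 79.01 RPKM in RM (log2 change of -3.49 ± 0.58, adjusted p = 0.0128). VM replicate 6 was the lowest of all libraries for both. Wnt8b, a forebrain Wnt ligand, had 6.02, 5.29 and 6.37 RPKM in VM, against 30.7, 26.4 and 65.6 RPKM in RM (log2 change of -2.49 ± 0.30, adjusted p = 0.00342). Irx6, an Iroquois gene, had 2.03, 3.49 and 3.71 RPKM in VM, against 11.9997, 9.54 and 19.1 RPKM in RM (log2 change of -1.81 ± 0.26, adjusted p = 0.00732). Tcf7l2 and Gbx2, thalamic genes, had RM ranges that took in all of their VM values or nearly so: Tcf7l2 had 45.5, 17.3 and 2.25 RPKM in VM, against 5.51, 264 and 4.12 RPKM in RM, and Gbx2 had 6.59, 1.24 and 0.704 RPKM in VM, against 0.438, 22.6 and 0.317 RPKM in RM.

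The telencephalic and subpallial list gave 1 lower gene of 19 tested and none higher, with a median log2 change of -0.32. That is 5.26% lower, against 0.489% of all genes tested, and rests on 1 gene. Without RM replicate 4, 2 were higher and 1 lower, without RM replicate 5, 1 was higher and 1 lower, and without RM replicate 6, 2 were lower. Lhx6, a LIM-homeobox gene of the ventral telencephalon and hypothalamus, had 0.164, 0 and 0.0266 RPKM in VM, against 9.45, 4.45 and 4.89 RPKM in RM (log2 change of -2.71 ± 0.25, adjusted p = 0.00118). The Dlx genes of GABAergic forebrain neurons were uneven and uncalled. Dlx1 had 4.96, 6.59 and 0.1701 RPKM in VM, against 48.1, 12.3 and 7.76 RPKM in RM (log2 change of -2.25 ± 0.83, adjusted p = 0.131), and Dlx2 had 0.8596, 1.601 and 0.0761 RPKM in VM, against 16.99, 2.84 and 2.33 RPKM in RM (log2 change of -1.82 ± 0.64, adjusted p = 0.118).

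**Figure D4:**
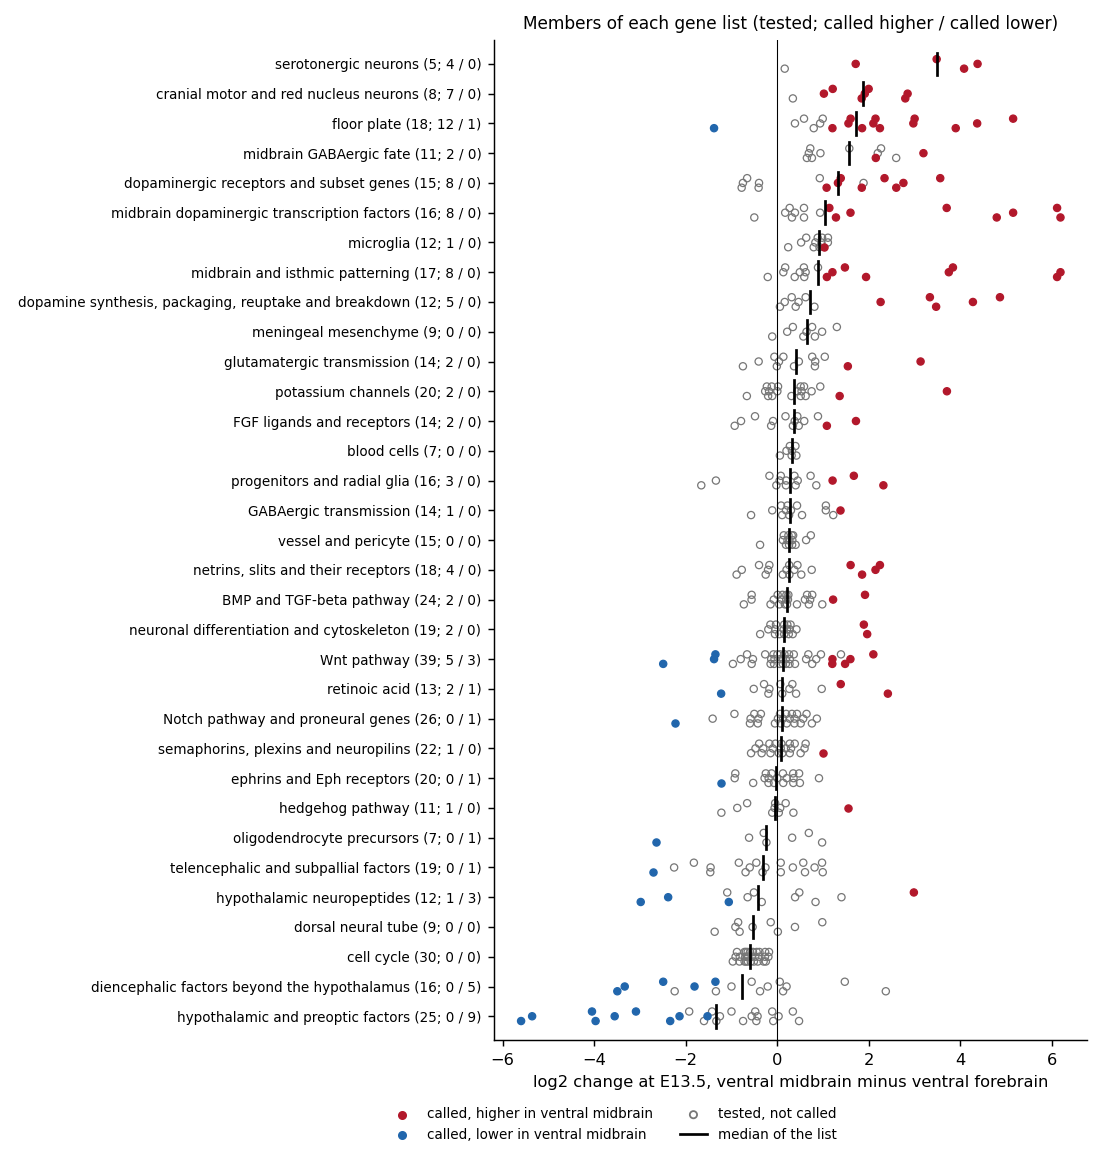
VM minus RM log2 change at E13.5 of every tested member of 33 lists, 1 line per list, with filled points for called genes and a bar at the median of the list. Serotonergic, motor and floor plate lists sit furthest right, with medians of 3.48, 1.88 and 1.73, and the hypothalamic list furthest left, with a median of -1.33. Members nearly absent from a region passed the filter only through the other, which fixed the sign of their change.

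In the signalling pathways, calls fell on a few ligands, modulators and targets. Over all genes tested, 2.19% were higher and 0.489% lower, and a count of 1 or 2 members rests on those genes alone. Of 11 hedgehog genes, Shh alone was called. The receptor gene Ptch1 and the target gene Gli1 had log2 changes of -0.046 ± 0.15 and -0.66 ± 0.23, so neither was called beside the higher ligand; the median of the list was -0.046. Of 39 Wnt genes, 5 were higher and 3 lower, with a median of 0.12. Without VM replicate 5 or without VM replicate 6, 4 were higher and 1 was lower. Wnt5a, a non-canonical ligand, had 27.8, 25.9 and 32.7 RPKM in VM, against 7.24, 3.71 and 7.52 RPKM in RM (log2 change of 2.10 ± 0.22, adjusted p = 0.00197), and Wnt5b changed by 1.48 ± 0.16 and Wnt4 by 1.20 ± 0.17 (adjusted p = 0.00191 and 0.00641). Prickle1, a planar cell polarity component, had 6.82, 5.58 and 7.91 RPKM in VM, against 1.84, 2.26 and 0.787 RPKM in RM (log2 change of 1.60 ± 0.23, adjusted p = 0.00772). Wnt1 was the fifth gene that was higher. Lower were Wnt8b, Rspo2 and Lef1, the last a nuclear effector of canonical Wnt signalling with 5.42, 2.91 and 2.46 RPKM in VM, against 8.99, 13.2 and 9.16 RPKM in RM (log2 change of -1.35 ± 0.25, adjusted p = 0.0182). The call of Lef1 was lost without VM replicates 5 or 6 (adjusted p from 0.0689 to 0.0735). Axin2, a general target of canonical Wnt signalling, had a change of -0.26 ± 0.14 (adjusted p = 0.274).

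The next lists each had few calls, beside 2.19% higher and 0.489% lower over all genes tested. In the BMP and TGF-beta list, 2 of 24 tested genes were higher (8.33%) and none lower (median 0.21). Id3, a BMP target, had 78.3, 70.4 and 85.2 RPKM in VM, against 29.5, 32.9 and 36.4 RPKM in RM (log2 change of 1.22 ± 0.10, adjusted p = 0.000703), and the ligand Tgfb2 had 6.38, 8.24 and 9.22 RPKM in VM, against 1.68, 1.54 and 0.902 RPKM in RM (log2 change of 1.92 ± 0.18, adjusted p = 0.00124). Of 14 FGF genes, 2 were higher and none lower (median 0.36). Beside Fgf8, these were Fgfbp3, an FGF-binding protein, with 87.4, 88.3 and 99.02 RPKM in VM, against 20.6, 34.9 and 27.6 RPKM in RM (log2 change of 1.72 ± 0.17, adjusted p = 0.00146). Of 13 genes of retinoic acid metabolism and response, 2 were higher and 1 lower (median 0.11). Cyp26b1, which degrades retinoic acid, had 2.03, 8.25 and 9.16 RPKM in VM, with replicate 4 well below the other VM libraries, against 0.256, 0.305 and 0.143 RPKM in RM (log2 change of 2.42 ± 0.43, adjusted p = 0.0166). The call of Cyp26b1 was lost without VM replicates 5 or 6 or RM replicate 6 (adjusted p from 0.0524 to 0.07). Crabp2, a binding protein for retinoic acid, had 10.9, 12.9 and 10.2 RPKM in VM, against 16.9, 37.1 and 33.5 RPKM in RM (log2 change of -1.23 ± 0.27, adjusted p = 0.032). The call of Crabp2 was lost without VM replicates 4, 5 or 6 or RM replicates 5 or 6, with no filter on low values, under voom and without VM replicate 4 and RM replicate 5 together (adjusted p from 0.0559 to 0.126). Of 26 Notch and proneural genes, 1 was lower and none higher (median 0.10): Neurod6, a helix-loop-helix gene of differentiating neurons, had 5.62, 3.18 and 1.48 RPKM in VM, against 17.8, 15.4 and 22.5 RPKM in RM (log2 change of -2.24 ± 0.33, adjusted p = 0.00763).

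Guidance genes were read beside the 2.19% higher and 0.489% lower over all genes tested. Of 18 genes of netrins, slits and their receptors, 4 were higher (22.2%) and none lower (median 0.26), and all 4 were ligands: Ntn1, Slit1, Slit2 and Slit3. Slit1, a midline repellent, had 50.1, 58.7 and 69.8 RPKM in VM, against 20.1, 13.3 and 14.1 RPKM in RM (log2 change of 1.85 ± 0.17, adjusted p = 0.0011). Slit2 had 67.9, 70.7 and 91.4 RPKM in VM, against 24.7, 15.4 and 37.7 RPKM in RM (log2 change of 1.60 ± 0.28, adjusted p = 0.0166), and Slit3 had 5.41, 6.06 and 7.21 RPKM in VM, against 0.8999, 0.939 and 0.161 RPKM in RM (log2 change of 2.15 ± 0.22, adjusted p = 0.0017). The call of Slit2 was lost without VM replicates 5 or 6 (adjusted p from 0.0541 to 0.0768). The receptors Robo1, Robo2 and Robo3 had changes of -0.20, -0.17 and 0.26, and Unc5c one of -0.78, none past the fold. Among 20 ephrins and Eph receptors, 1 was lower and none higher (median -0.035): Epha3 had 8.78, 10.4 and 8.91 RPKM in VM, against 18.7, 21.6 and 31.6 RPKM in RM (log2 change of -1.24 ± 0.18, adjusted p = 0.00714). Among 22 semaphorin, plexin and neuropilin genes, 1 was higher (4.55%) and none lower (median 0.083), so the count rests on Plxna2 alone. Plxna2 had 19.6, 20.7 and 20.1 RPKM in VM, against 11.7, 10.7 and 6.81 RPKM in RM (log2 change of 1.01 ± 0.17, adjusted p = 0.0145). The call of Plxna2 was lost without VM replicates 5 or 6 or RM replicate 6, and without VM replicate 4 and RM replicate 5 together (adjusted p from 0.00365 to 0.0661).

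Genes of the cell cycle had lower values in VM without any being called. All 30 tested log2 changes were below 0. Their median was -0.59, against 0.21 for the same list at E12.5, in libraries described below. Ccnd1, the G1 cyclin, had 17.2, 17.8 and 19.8 RPKM in VM, against 40.8, 29.5 and 41.1 RPKM in RM (log2 change of -0.97 ± 0.13, adjusted p = 0.00555), just short of the fold. Top2a and Mki67, expressed in dividing cells, had changes of -0.91 ± 0.22 and -0.67 ± 0.23 (adjusted p = 0.0429 and 0.113). Without RM replicate 5, 3 of the 30 were lower, and without RM replicate 5 and VM replicate 4 together, 4 were. Of 16 progenitor and radial glial genes, 3 were higher and none lower (median 0.29). That is 18.75% higher, against 2.19% of all genes tested. Fabp7, the brain fatty acid-binding protein, had 641, 761 and 806 RPKM in VM, against 351, 336 and 268 RPKM in RM (log2 change of 1.21 ± 0.13, adjusted p = 0.00191). Slc1a3, the glial glutamate transporter, had 59.9, 68.3 and 86.6 RPKM in VM, against 17.9, 17.7 and 7.45 RPKM in RM (log2 change of 2.32 ± 0.31, adjusted p = 0.00503), and Aldh1l1, a folate enzyme of radial glia, had 32.1, 41.5 and 47.4 RPKM in VM, against 11.46, 10.8 and 13.3 RPKM in RM (log2 change of 1.67 ± 0.14, adjusted p = 0.000862). The pan-progenitor genes Sox2, Nes and Vim had changes of 0.19, 0.45 and 0.052, none called.

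The lists of neurons and non-neural cells had few calls, beside 2.19% higher and 0.489% lower over all genes tested. Of 19 pan-neuronal genes, 2 were higher (10.5%) and none lower, with a median of 0.15. The 2 were neurofilament subunits. Nefl had 190.4, 190.2 and 282 RPKM in VM, against 48.6, 57.3 and 59.3 RPKM in RM (log2 change of 1.96 ± 0.16, adjusted p = 0.00073), and Nefm had 102, 107 and 164 RPKM in VM, against 26.7, 33.9 and 36.05 RPKM in RM (log2 change of 1.89 ± 0.19, adjusted p = 0.0016). Tubb3, Map2 and Dcx, which mark neurons of any kind, had changes of -0.045 ± 0.10, 0.15 ± 0.086 and 0.047 ± 0.078. Markers of non-neural cells were measured in both regions. Of 12 tested microglial genes, 1 was higher and none lower (median 0.90), and their summed level was 87.9, 41.8 and 46.6 RPKM in VM, against 42.5, 17.4 and 19.04 RPKM in RM. Without RM replicate 4, 4 were higher (median 1.245), and without any other single library 0 were. Replicate 4 was the highest library of each group in that sum. Trem2, a microglial receptor, had 3.39, 1.37 and 1.73 RPKM in VM, against 0.548, 0.606 and 0.377 RPKM in RM (log2 change of 1.02 ± 0.24, adjusted p = 0.0429). The call of Trem2 was lost without VM replicates 4, 5 or 6 or RM replicates 4, 5 or 6, with no filter on low values, under voom and without VM replicate 4 and RM replicate 5 together (adjusted p from 0.0508 to 0.116). Of 7 blood, 15 vessel, 9 meningeal and 6 sex-linked genes tested, 0 were called. The sex-linked transcript Xist had 0.1004, 68.6 and 0.0544 RPKM in VM, against 0.0487, 80.5 and 0.0783 RPKM in RM. Replicate 5 thus stood apart in both regions, and Tsix was high in the same libraries. The part of microglia in the other results was not tested. Olig2, a basic helix-loop-helix factor of motor neuron and oligodendrocyte progenitors that the diencephalon also expresses, was the 1 called gene of 7 in the oligodendrocyte precursor list and was lower. It had 4.04, 3.36 and 3.63 RPKM in VM, against 20.6, 20.9 and 51.4 RPKM in RM (log2 change of -2.64 ± 0.32, adjusted p = 0.00349), while Pdgfra, the defining receptor of these precursors, had a change of 0.98 ± 0.46 (adjusted p = 0.212). None of the 9 tested dorsal neural tube genes was called.

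The same contrast was read 1 day earlier, at E12.5, in 3 VM and 3 RM libraries that share no sample with those at E13.5 and come from another run. There, 502 of 13268 genes were called (3.78%), 399 higher (3.01%) and 103 lower (0.776%), while 29.9% had an unadjusted p below 0.05. Of the 296 genes higher at E13.5, 213 were called higher at E12.5 too, which is 72.0% of the E13.5 calls and 53.4% of the E12.5 calls. Of the 66 lower genes, 14 were, or 21.2% and 13.6%. In opposite directions, 0 genes were called. Of the higher genes, 290 of 291 tested at E12.5 had a log2 change above 0 there, and of the lower genes 40 of 51 had one below 0.

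**Figure D5:**
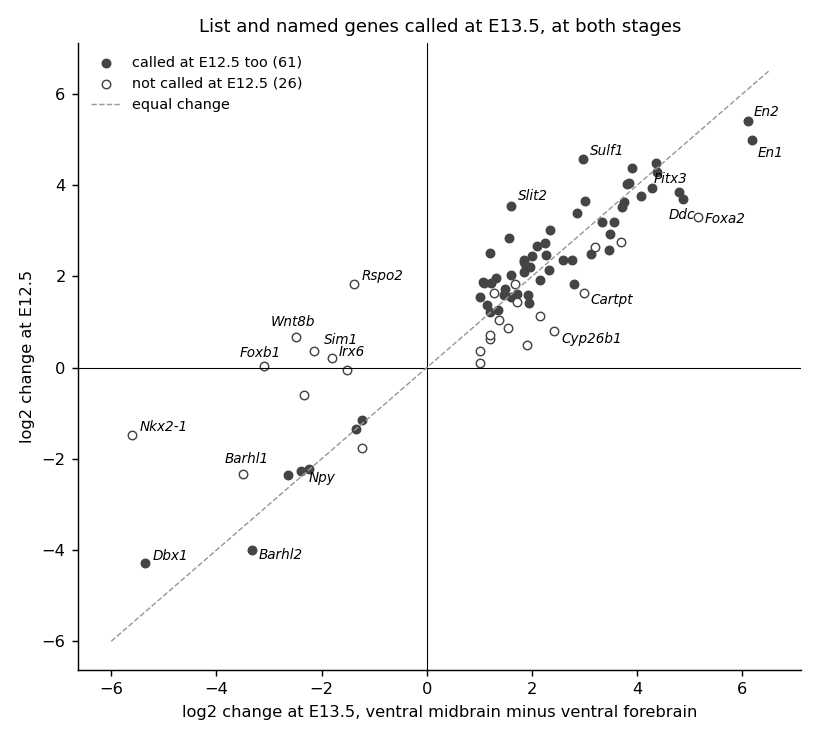
VM minus RM log2 change at E12.5 (vertical axis) against that at E13.5 (horizontal axis) for 87 listed or named genes called at E13.5 and tested at E12.5, of which 61 were called at E12.5 too and 26 were not. Most genes higher in VM lie near the line of equal change, while several hypothalamic genes that were lower at E13.5 sit near 0 at E12.5.

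The members called in the same direction at both stages were 8 in the isthmic list, 11 in the floor plate list, 7 in the dopaminergic subset list, 5 each in the dopaminergic factor, dopamine synthesis and motor lists, and 4 each in the serotonergic list and the list of netrins and slits. There was 1 in the hypothalamic list, which had 3 higher and 3 lower at E12.5, and 2 in the diencephalic list. The GABAergic fate, GABAergic transmission, telencephalic, retinoic acid, semaphorin and microglial lists had 0. En1 had 69.7, 79.9 and 70.3 RPKM in VM at E12.5, against 0.0399, 2.76 and 2.2997 RPKM in RM (log2 change 4.98 ± 0.46, adjusted p = 0.00141). Th had 80.6, 85.04 and 71.6 RPKM in VM, against 2.34, 4.42 and 6.67 RPKM in RM (log2 change 3.95 ± 0.28, adjusted p = 0.000642), and the groups did not overlap. Among the RM libraries at E12.5, replicate 1 stood apart most. Its mean correlation with its group was 0.985, against 0.991 and 0.990 for replicates 2 and 3, and 0.990 to 0.991 for RM at E13.5. Several regional genes were uneven among the RM libraries at E12.5. Foxa2 stood there at 78.5, 73.2 and 73.6 RPKM in VM, against 0.143, 16.9 and 21.5 RPKM in RM, and the difference was not called (adjusted p = 0.0906). Nkx2-1 had 0.0778, 0 and 0.0326 RPKM in VM, against 0.0357, 0.561 and 13.9 RPKM in RM (adjusted p = 0.345), and Lmx1a had 85.04, 77.3 and 71.4 RPKM in VM, against 0.216, 7.23 and 43.1 RPKM in RM (adjusted p = 0.105). The marker of the ventral forebrain was thus at or near 0 in 2 of the 3 RM libraries at E12.5, so the label of those libraries is less sure than at E13.5.

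Whether the regional difference itself changed between the stages was tested over all 12 libraries, and 6 of 13649 genes passed (0.044%), 1 upward (0.00733%) and 5 downward (0.0366%). Bsx had almost none in any group but RM at E13.5, with 0, 0 and 0 RPKM in VM and 0, 0 and 0.529 RPKM in RM at E12.5 (difference of log2 changes -3.76 ± 0.41, adjusted p = 0.0121). Lhx6 behaved alike, with 0, 0.0242 and 0.0263 RPKM in VM and 0.0288, 0 and 0.0468 RPKM in RM at E12.5 (difference -2.70 ± 0.30, adjusted p = 0.0121). Msx1 had 8.42, 7.55 and 10.9 RPKM in VM at E13.5, against 4.52, 5.89 and 6.48 RPKM in RM, and 13.6, 13.3 and 11.4 RPKM in VM at E12.5, against 0.417, 0.491 and 1.69 RPKM in RM (difference -2.36 ± 0.32, adjusted p = 0.0403). Msx1os, a transcript named as antisense to Msx1, moved with it (difference -2.02 ± 0.28, adjusted p = 0.0403), and reads of the pair cannot be told apart where strand is not given. Asb4, expressed in hypothalamus, had 20.1, 17.4 and 23.4 RPKM in VM at E13.5, against 23.1, 9.85 and 16.2 RPKM in RM, where the groups overlapped, and 26.3, 26.2 and 22.4 RPKM in VM at E12.5, against 2.38, 2.19 and 3.66 RPKM in RM (difference -2.46 ± 0.35, adjusted p = 0.0447). Gpr153, an orphan receptor and the 1 upward gene, had 10.1, 9.5999 and 9.601 RPKM in VM at E13.5, against 7.6003, 7.76 and 5.88 RPKM in RM, and 3.99, 5.57 and 4.71 RPKM in VM at E12.5, against 9.61, 9.897 and 9.002 RPKM in RM (difference 1.30 ± 0.16, adjusted p = 0.0303). The difference of Lmx1a between stages did not pass (-2.98 ± 1.31, adjusted p = 0.309). The count was 364 without RM replicate 1 of E12.5, 147 without RM replicate 5 of E13.5, 24 without RM replicate 3 of E12.5 and 0 to 3 without any other single library. Each of the 6 calls was lost in 8 to 12 of 15 alternatives (adjusted p from 0.0512 to 0.243).

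Levels in the other regions at E13.5 place the pair in the series, as a description without a test. En1 had 64.6 to 97.6 RPKM in VM, the highest of the 5 regions, 9.41 to 18.5 RPKM in alar plate, 8.003 to 19.8 RPKM in ventral hindbrain and 0.639 to 2.61 RPKM in dorsal midbrain. The alar plate and ventral hindbrain values overlapped. Foxa2 had 2.695 to 5.37 RPKM in ventral hindbrain, 1.56 to 4.72 RPKM in alar plate and 0 to 0.0381 RPKM in dorsal midbrain, all below every VM library. Lmx1a had 0.871 to 1.71 RPKM in ventral hindbrain, 0.175 to 0.333 RPKM in dorsal midbrain and 0.0845 to 0.432 RPKM in alar plate, so VM and RM were the regions with high levels of this gene. Nkx6-1 had 15.2 to 26.7 RPKM and Slc17a8 9.86 to 14.8 RPKM in ventral hindbrain, ranges that overlapped those of VM.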

How the data were processed

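Total RNA of dissected embryonic brain regions went into libraries made with an Illumina TruSeq kit, per the labels' protocols. The authors deposited 1 table of RPKM values for 24378 features in 60 libraries. Reads were aligned to mm10 with Bowtie, per the submitters' processing notes, while the version, counter, annotation and strand setting were not given in the sources used here. The unit was read from the deposited values: each RPKM value times transcript length gives whole reads within 0.01 for 100.0% of values, scaled to 1000000 reads per library. Every value column was matched to a sample by its name. Features that share reads with near-identical copies, and overlapping or antisense genes, are uncertain.

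Values were converted to log2(RPKM + 1), features with a mean of at least 1 RPKM in either group were kept, and limma 3.58.1 in R 4.3.3 (empirical Bayes with a trend) was fitted to the 6 libraries, with Benjamini-Hochberg adjustment over all features tested. The call threshold was an adjusted p below 0.05 with an absolute log2 change of at least 1. A permutation test of 3 against 3 libraries cannot go below 0.1, so none is given. E12.5 was fitted alike, and the difference between stages over 12 libraries. The scripts were tested on simulated data. Own-group correlations of the E13.5 libraries were 0.990 to 0.993.

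VM and RM libraries carry the same replicate numbers. Deviations from the group means of same-numbered libraries correlated at 0.325, 0.268 and 0.248 at E13.5 and at 0.392, 0.243 and 0.241 at E12.5. The numbers were therefore taken to pair the samples, but only in the alternative with a replicate block. The main fits, and the standard errors and adjusted p given with the genes, do not use the pairing. It comes from the titles, and the labels do not say what it marks. At E13.5, Xist was high in replicate 5 of both regions and nearly absent in replicates 4 and 6. Whether same-numbered libraries share an embryo was not tested.

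Alternatives were a pseudocount of 0.1, no filter, a filter of 5 RPKM, voom on recovered reads, median-of-ratios scaling, a fit of all 15 E13.5 libraries, a replicate block, no minimum fold and each library left out. Genes named were the regional markers, up to 12 per direction with the largest change among called genes of at least 5 RPKM whose groups do not overlap, up to 4 called members per list and direction, uncalled members by their values, and up to 5 per direction for the difference between stages; others are said to be chosen after their values were seen, and some genes of the lists are not reported here. The members and lists were chosen with earlier results of these data known. Promoter windows and motif matches come from RefSeq (GRCm38.p6), where 428 of 581 list members had a window, and gene positions from the GENCODE annotation of the same build. Counting error alone limits low values: 0 reads allow up to 3.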

Additional observations from a re-analysis of the deposited data

Results flagged for a closer look

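For 6 genes, the difference between VM and RM itself differed between E13.5 and E12.5 by limma's test over 12 libraries, which is why they are listed here. The change at E13.5 less that at E12.5, on the log2(RPKM + 1) scale, was -3.76 for Bsx, -2.70 for Lhx6, -2.46 for Asb4, -2.36 for Msx1 and -2.02 for Msx1os. It was 1.30 for Gpr153. Bsx and Lhx6 were high in RM alone at E13.5 and near 0 in both regions at E12.5. Asb4 and Msx1 had RM levels closer to those of VM at E13.5 and were low in RM at E12.5. RM libraries differed among themselves at E12.5, where Nkx2-1 had 0.0357, 0.561 and 13.9 RPKM and Lmx1a had 0.216, 7.23 and 43.1 RPKM, and the part of this unevenness in the 6 differences was not tested.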

How the results depend on the processing

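At E13.5 the 362 calls became 573 under voom on recovered reads and 1236 with no minimum fold; the second follows from its construction, and for the first the cause was not tested. Leaving out single libraries gave 257 to 426 calls at E13.5 and 376 to 565 at E12.5, where the full count was 502. With a replicate block, which uses the pairing of the numbers, the counts were 393 and 511, and the block changed no call of a named or listed gene at E13.5. The other settings gave 248 to 501 calls at E13.5, and the share of higher calls was 81.8% in the main comparison and 82.1% under median-of-ratios scaling.

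For the difference between stages, the 6 calls became 0 with a pseudocount of 0.1, 2 with no filter on low values, 0 under voom and 0 to 364 without single libraries, while 2105 genes had an unadjusted p below 0.05 (15.4%). The cause was not tested.

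None of 101 named or listed genes reversed direction under any alternative at E13.5. Calls lost numbered 23 without VM replicate 6, 17 without VM replicate 5 and 11 or fewer in each other setting. Leaving out VM replicate 4 and RM replicate 5 together, an alternative chosen after seeing the data, gave 386 calls. Beside the changes given with the lists, it took the higher genes to 7 of dopaminergic factors, 11 of the floor plate, 6 of motor neurons, 3 of glutamatergic transmission, 1 of FGF genes and 0 of GABAergic transmission, microglia and semaphorins. It took the lower genes to 1 in the subset, hedgehog and progenitor lists, 2 in the neuropeptide, Notch and Eph lists and 0 for retinoic acid. VM replicate 4, with the fewest reads, limits the precision of low levels.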

Other observations

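Imprinted genes are those expressed from the chromosome of 1 parent. A list of 34 was chosen after seeing the values, so the values are a description with no test. Of 31 with a level to compare, 5 were lower in VM and 0 higher by the same limma fit (0.489% and 2.19% of all genes tested), the median log2 change was -0.215, 21 changes were below 0, and the groups did not overlap for 16, against 34.4% of all genes. Of these 16, H19, Peg13 and Nap1l5 had every VM library above every RM library, with log2 changes of 1.64 ± 0.47, 0.41 ± 0.078 and 0.20 ± 0.094, none called. Magel2, a gene of the Prader-Willi region active in the hypothalamus, had 17.5, 24.7 and 17.1 RPKM in VM, against 102, 51.6 and 92.4 RPKM in RM. Mest, an imprinted hydrolase-like gene, had 94.2, 83.99 and 87.3 RPKM in VM, against 180.4, 138 and 243 RPKM in RM. Plagl1, a zinc finger factor, had 15.9, 10.7 and 10.7 RPKM in VM, against 43.8, 34.6 and 39.8 RPKM in RM. For each of these 3 genes every RM library exceeded every VM library. Rtl1 and Zdbf2 were the other called genes, with log2 changes of -1.32 ± 0.31 and -1.10 ± 0.20. Of these 5 genes, Plagl1 alone was called at E12.5, with a log2 change of -1.56. Magel2, Rtl1 and Zdbf2 had changes of -0.43, -0.43 and -0.46 there, and Mest one of 0.44 in the other direction. The call of Mest was lost without VM replicates 5 or 6 or RM replicate 6 (adjusted p from 0.0144 to 0.0729). The call of Rtl1 was lost without VM replicates 4, 5 or 6 or RM replicates 4 or 6, with no filter on low values and without VM replicate 4 and RM replicate 5 together (adjusted p from 0.0178 to 0.123). The call of Zdbf2 was lost without VM replicates 5 or 6 or RM replicates 4 or 6 (adjusted p from 0.0386 to 0.0729).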
